A study of Mus musculus with 3 samples.

Results

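The genes of cholesterol and fatty acid synthesis that sterol regulatory element-binding proteins (SREBPs) switch on were followed in prostate tumors of TRAMP mice with and without the histone demethylase gene Phf8. They were chosen by name from textbook knowledge of the pathway, but with earlier results of these data known. Shares of them set against all genes are therefore a description. The set holds 34 of the 46095 gene symbols in the deposited count table. It covers 7 genes of the mevalonate pathway, 11 genes from squalene to cholesterol, 4 genes of sterol sensing and transport, 5 genes of fatty acid synthesis and 7 genes that elongate, desaturate or activate fatty acids. In the TRAMP model a transgene for the tumor antigens of the SV40 virus is driven by the probasin promoter, which is active in prostate epithelial cells, and all animals of both groups carry it. The control group, labeled TRAMP, is PHF8 wild-type and gave 1 library. The Phf8-KO group, from a cross of Phf8 knockout females with TRAMP males, is labeled PHF8 knockout and is held by 2 libraries (Phf8-KO1, Phf8-KO2). Each library was made from RNA of 3 mice mixed in equal mass at 37 weeks of age. Whether the Phf8-KO libraries come from different mice is not given in the sources used here, so a p-value measures only the spread between these libraries.

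SREBPs are made as inactive precursors in the membrane of the endoplasmic reticulum. When membrane sterol is low, the escort protein SCAP carries them to the Golgi, where proteases free the part that enters the nucleus and activates lipid genes. INSIG proteins hold the complex back when sterol is plentiful, and the gene Insig1 is itself an SREBP target. SREBP2, encoded by Srebf2, acts mainly on cholesterol genes, and the main product of Srebf1 acts mainly on fatty acid genes. Normal prostate epithelium makes much lipid of its own, and androgens are known to raise the expression of many of these enzymes. Fat cells also use the fatty acid branch of this pathway.

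The promoters of 27 of the 34 genes stand in the RefSeq table of GRCm38.p6, and 4 of them are shown. Hmgcs1, a gene of the mevalonate pathway, holds the only match found to the sterol element. Srebf2 and Fasn were higher in both Phf8-KO pools, and Sc5d was lower in both. Each run lies before the start site of that table, reads 5′ to 3′ on the strand of the gene, and stops short where GENCODE places an exon in the window. The Fasn run lies inside the widest span annotated for the gene, and the Srebf2 run leaves out the part of its window that holds 3 of its 4 GGGCGG matches. Capitals mark the motifs searched on both strands, which also appear as their reverse complements. The sterol element was searched as TCACNCCAC. The NF-Y box was searched as CCAAT, and the Sp1 box as GGGCGG.
Hmgcs1, chr13:119690101-119690350, plus strand: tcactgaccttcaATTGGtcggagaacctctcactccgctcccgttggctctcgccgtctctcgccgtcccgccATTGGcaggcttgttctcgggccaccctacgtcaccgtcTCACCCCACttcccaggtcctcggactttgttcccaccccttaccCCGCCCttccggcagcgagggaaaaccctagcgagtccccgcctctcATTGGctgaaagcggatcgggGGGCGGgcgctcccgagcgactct
Srebf2, chr15:82147019-82147180, plus strand: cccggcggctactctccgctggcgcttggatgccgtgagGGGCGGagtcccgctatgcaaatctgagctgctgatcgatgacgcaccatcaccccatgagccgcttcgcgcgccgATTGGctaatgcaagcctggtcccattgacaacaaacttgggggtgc
Fasn, chr11:120824548-120824797, minus strand: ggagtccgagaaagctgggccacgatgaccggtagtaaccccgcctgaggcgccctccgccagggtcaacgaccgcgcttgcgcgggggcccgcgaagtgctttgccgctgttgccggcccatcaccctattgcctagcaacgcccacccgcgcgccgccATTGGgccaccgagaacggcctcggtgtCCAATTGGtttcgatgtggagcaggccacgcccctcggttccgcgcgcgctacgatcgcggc
Sc5d, chr9:42264301-42264550, minus strand: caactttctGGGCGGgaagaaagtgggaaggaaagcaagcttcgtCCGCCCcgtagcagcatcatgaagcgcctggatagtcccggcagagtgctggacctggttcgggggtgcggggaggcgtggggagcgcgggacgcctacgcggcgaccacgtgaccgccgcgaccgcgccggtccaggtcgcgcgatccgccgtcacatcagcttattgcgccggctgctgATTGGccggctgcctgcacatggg
In the 250 bases before the start site, CCAAT was found in 21 of 27 promoters (77.8%, exact 95% binomial interval 57.7 to 91.4%), against 34.5% of all 27018 promoters in the table and 35.8% of the 12458 promoters of genes tested here. GGGCGG was found in 20 of 27 (74.1%, exact 95% binomial interval 53.7 to 88.9%), against 33.0% of all promoters. Promoters of tested genes had it at 54.6%, which lies inside that interval. The sterol element was found in 1 of 27 (3.70%, exact 95% binomial interval 0.0937 to 19.0%), against 1.03% of all promoters, inside that interval. The match starts 137 bases before the start of Hmgcs1. A longer form of the element with no free position was found in 0 of 27, which allows a share of up to 12.8% (exact 95% binomial interval), against 0.0629% of all promoters. CCAAT stood in 6 of 6 mevalonate and 8 of 9 sterol promoters, and in 2 of 5 promoters of fatty acid synthesis genes. Among genes of elongation, desaturation and activation, 2 of 4 promoters had it. Genes that were higher and genes that were lower in the Phf8-KO pools both had it, among them Fasn, with 3 matches of which a pair overlaps, and Sc5d, with 1. These are matches of letters and not measured binding. Only exact matches were counted, so a variant element is missed, and a promoter without a match may still hold one. Fdps, Fdft1, Sqle, Stard4, Scd1, Scd2 and Fads1 had no promoter in the table and were not searched.

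The count table was deep, with totals from 26747443 to 31876182 counts per library, and all 34 genes passed the filter on low counts that left 18216 genes for testing. The smallest count of a member was 59 and the largest 36264. The targeted gene Phf8 measured 19.4 CPM in TRAMP, against 15.0 in Phf8-KO1 and 15.9 in Phf8-KO2, where CPM is the usual scaling of counts to library size, here with TMM factors. The sources used here do not say which part of Phf8 the allele lacks, so a whole-gene count is no check of the knockout. Of the markers of other tissue, 9 adipocyte genes summed to 707 CPM in TRAMP against 34.2 and 32.7 in the pools, while 10 skeletal muscle genes summed to 1774 CPM against 75.0 and 17.6 CPM. Of 10 luminal prostate genes 5 lay below TRAMP in both pools and 3 above, and their sum was 8133 CPM for TRAMP, against 7599 in Phf8-KO1 and 3065 in Phf8-KO2. The low sum of Phf8-KO2 came mainly from the secretory gene Msmb, at 4803, 4324 and 189.6 CPM, while the keratin gene Krt18 stood at 1557, 1305 and 1348 CPM. The pools also differed from each other, with 18.3% of tested genes more than 2-fold apart, and smooth muscle genes at 5541 CPM in Phf8-KO1 against 451 CPM in Phf8-KO2 and 733 CPM in TRAMP. Phf8-KO values are means ± SD of 2 pools, the lone TRAMP library has no SD, and it is assumed to vary like the Phf8-KO pools.

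The SREBP genes themselves and part of the fatty acid branch lay above TRAMP in both knockout pools. The sterol genes Sc5d and Msmo1 were lower, and most mevalonate and sterol genes lay nearer to TRAMP. Of the 34 members 0 were called by the edgeR quasi-likelihood fit (adjusted p under 0.05 and over 2-fold), in which 0.0384% of tested genes were called lower and 0% higher. The lowest edgeR quasi-likelihood adjusted p of any gene higher in Phf8-KO was 0.10, a value that the adjustment gave to many genes alike. By unadjusted p under 0.05, 8 of the 34 were higher (23.5%) where the background was 14.9%, and 2 were lower (5.88%) where it was 12.2%. By DESeq2, the tool of the study, 5 were higher (14.7%) against 9.42% of genes, and 0 were lower against 4.59%. The 5 were Srebf1, Srebf2, Me1, Fasn and Fads1, and edgeR with no low-count filter also called these 5 higher, against 5.55% of genes, and 0 lower, against 3.32%. The median log2 fold change of Phf8-KO over TRAMP was 0.10 for the members and 0.01 for all tested genes. Both pools lay above TRAMP for 17 members, against 40.8% of all genes, and below it for 13 (38.2%), against 42.8%. The gap to TRAMP was wider than that between the pools for 11 members above it (32.4%), against 29.3% of genes, and for 8 below it (23.5%), against 28.1%. A fitted fold over 2 was seen for 6 members upward (17.6%), against 17.5% of genes, and for 0 downward, against 16.1%. As these are bulk tumors, fewer cells of a type and less RNA per cell cannot be told apart.

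**Figure D1:**
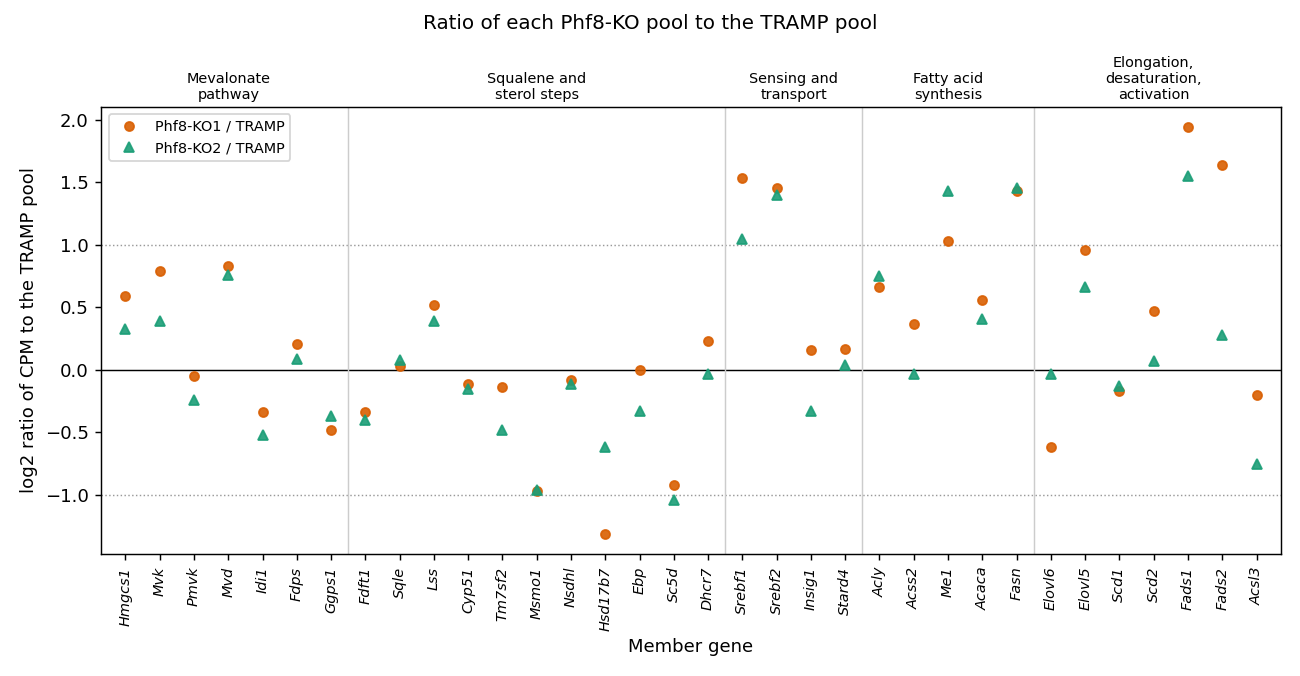
Log2 ratio of CPM in each Phf8-KO pool to the TRAMP pool for the 34 genes, ordered by role, Phf8-KO1 drawn as circles, Phf8-KO2 as triangles and 2-fold as dotted lines. Srebf1, Srebf2, Me1, Fasn and Fads1 lie above the upper line in both pools, Msmo1 and Sc5d lie near the lower line, and Fads2 is far apart between the pools.

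Both genes that encode SREBPs were more than 2-fold higher in the Phf8-KO pools. Srebf2 measured 43.9 CPM in TRAMP, against 120.1 in Phf8-KO1 and 116 in Phf8-KO2. The pools lay 1.04-fold apart, and their mean of 118 ± 3.04 CPM was 2.68-fold the TRAMP level (log2 fold change 1.42, standard error (SE) 0.19, edgeR quasi-likelihood adjusted p = 0.10 by Benjamini and Hochberg, DESeq2 adjusted p = 2.9e-05). Srebf1 measured 85.8 CPM in TRAMP, against 247 in Phf8-KO1 and 177 in Phf8-KO2, so its pools were less alike. Its log2 fold change was 1.31 (SE 0.30, edgeR quasi-likelihood adjusted p = 0.12, DESeq2 adjusted p = 0.0016). In GRCm38, Srebf2 lies on chromosome 15 from 82147269 to 82205379 and Srebf1 on chromosome 11 from 60199084 to 60224186. Counts over the whole Srebf1 gene cannot separate its transcripts, which start at different promoters.
Insig1, the feedback gene, had a TRAMP level between those of the pools. It measured 60.6 CPM in TRAMP, between 67.9 in Phf8-KO1 and 48.1 in Phf8-KO2 (log2 fold change -0.06, SE 0.28). The sign turned, to 0.01 when counts were scaled by library size alone and to 0.17 without Phf8-KO2. Within a library, and so free of any scaling, there were 1.38 counts of Insig1 per count of Srebf2 in TRAMP. In the Phf8-KO pools there were 0.565 and 0.415. Srebf2 was higher and Insig1 nearly level, so this ratio restates those values. Stard4, a carrier that moves sterol between membranes and a known SREBP2 target, measured 67.2 CPM in TRAMP, against 75.4 in Phf8-KO1 and 69.2 in Phf8-KO2, and its small positive log2 fold change of 0.10 became -0.04 with upper quartile scaling.

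The mevalonate pathway builds isoprenoid units from acetyl-CoA and had members on both sides of TRAMP. The median log2 fold change of its 7 genes was 0.15, with 4 above TRAMP in both pools and 3 below. They summed to 236 CPM in TRAMP, against 246 in Phf8-KO1 and 228 in Phf8-KO2. Hmgcs1, the synthase that makes HMG-CoA, measured 39.2 CPM in TRAMP, against 58.9 in Phf8-KO1 and 49.1 in Phf8-KO2 (log2 fold change 0.46, SE 0.22). Mvd, which decarboxylates mevalonate diphosphate, measured 10.2 CPM in TRAMP, against 18.1 in Phf8-KO1 and 17.2 in Phf8-KO2. It was the only gene of this group with an unadjusted p under 0.05 (log2 fold change 0.79, SE 0.27, edgeR quasi-likelihood adjusted p = 0.18). The kinase gene Mvk measured 7.06 CPM in TRAMP and averaged 10.7 ± 2.12 CPM over the Phf8-KO pools, while the next kinase, Pmvk, was at 45.9 and 41.6 ± 3.81 CPM.
The later genes leaned the other way or stood level. Idi1, the isomerase of isopentenyl diphosphate, measured 7.02 CPM in TRAMP, against 5.55 in Phf8-KO1 and 4.89 in Phf8-KO2. Ggps1, which leads away from sterols to the geranylgeranyl lipids that anchor proteins in membranes, measured 90.5 CPM in TRAMP, against 64.8 in Phf8-KO1 and 69.9 in Phf8-KO2 (log2 fold change -0.43, SE 0.18). Fdps, the farnesyl diphosphate synthase, measured 36.1 CPM in TRAMP and averaged 40.1 ± 2.37 CPM over the Phf8-KO pools. Of the 50-base words in its transcript 86.4% also occur in other annotated genes, so its count is uncertain, and for Idi1 this share is 21.3%.

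The steps from squalene to cholesterol had a lower sum in the Phf8-KO pools. Their 11 genes took 583 and 543 CPM against 742 for TRAMP, and most of that difference came from Sc5d and Msmo1. The median log2 fold change of the 11 genes was -0.15, with 7 below TRAMP in both pools and 2 above. Sc5d, the desaturase that acts near the end of the route, measured 183 CPM in TRAMP, against 96.9 in Phf8-KO1 and 89.0 in Phf8-KO2. Both pools were at about the same level and far below TRAMP, with a log2 fold change of -0.98 (SE 0.18, edgeR quasi-likelihood adjusted p = 0.10, DESeq2 adjusted p = 0.0074). Msmo1, an oxidase that acts in the removal of methyl groups from the sterol ring, measured 85.7 CPM in TRAMP and 43.9 in each pool. Its log2 fold change was -0.97 (SE 0.17, edgeR quasi-likelihood adjusted p = 0.10, DESeq2 adjusted p = 0.019). Sc5d lies on chromosome 9 from 42251592 to 42264300 and Msmo1 on chromosome 8 from 64718123 to 64733578. Neither gene reached a fitted 2-fold change in these tests, which a call required. Hsd17b7, a reductase of the same demethylation steps, measured 10.9 CPM in TRAMP, against 4.35 in Phf8-KO1 and 7.06 in Phf8-KO2, and its pools lay 1.62-fold apart (log2 fold change -0.93, SE 0.47).
Earlier and neighboring steps lay nearer to TRAMP. Fdft1, the squalene synthase, measured 149.8 CPM in TRAMP and averaged 116 ± 3.20 CPM over the Phf8-KO pools, and part of its exons overlaps Ctsb on the other strand. Sqle, the epoxidase that is a rate-limiting step after squalene, measured 36.2 CPM in TRAMP, against 37.0 in Phf8-KO1 and 38.2 in Phf8-KO2. Its log2 fold change of 0.05 (SE 0.18) became -0.10 with upper quartile scaling. Lss, the cyclase that forms lanosterol, was the one gene of the group that lay clearly above TRAMP in both pools, at 26.6 CPM against 38.2 and 34.9 CPM (log2 fold change 0.46, SE 0.20). Counts of Sc5d for each count of Lss were 6.89 in TRAMP, 2.53 in Phf8-KO1 and 2.55 in Phf8-KO2, and those of Msmo1 were 3.22, 1.15 and 1.26. These genes were picked for ratios after their values were seen, so the direction follows from the choice.
The rest of the sterol genes lay closer to TRAMP. Cyp51, the lanosterol demethylase, measured 90.5 CPM in TRAMP and averaged 82.6 ± 1.71 CPM over the Phf8-KO pools, and Nsdhl, a sterol dehydrogenase, stood at 33.8 and 31.7 ± 0.346 CPM. Ebp, the sterol isomerase, measured 90.1 CPM in TRAMP, against 90.2 in Phf8-KO1 and 71.6 in Phf8-KO2. Dhcr7, whose product makes cholesterol in the last step of one branch, measured 22.8 CPM in TRAMP and averaged 24.5 ± 3.06 CPM over the Phf8-KO pools, and Tm7sf2, a sterol reductase, stood at 12.6 and 10.2 ± 1.73 CPM. The signs of Ebp and Dhcr7 turned in other settings, Ebp to 0.01 without Phf8-KO2 and Dhcr7 to -0.04 with upper quartile scaling.

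**Figure D2:**
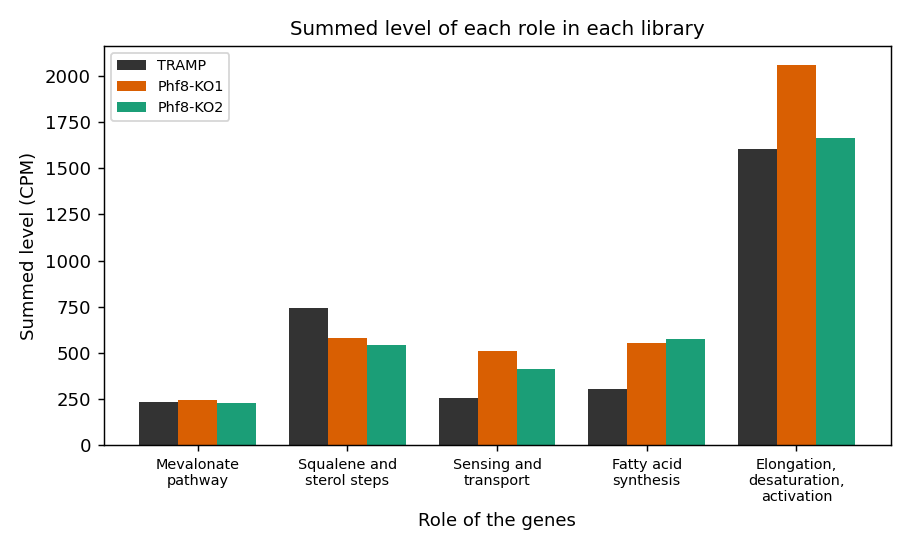
Summed level in CPM of the genes of each role in TRAMP, Phf8-KO1 and Phf8-KO2, each a pool of 3 mice and each bar 1 library, so there are no error bars. Fatty acid synthesis stands at 305, 556 and 574 CPM, and squalene and sterol steps at 742, 583 and 543 CPM, in that order. Most of the difference in the sterol steps came from Sc5d and Msmo1.

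Fatty acid synthesis turns citrate and acetate into acetyl-CoA, then malonyl-CoA, then palmitate, and 4 of its 5 genes lay above TRAMP in both Phf8-KO pools. Their median log2 fold change was 0.70. The sum of the 5 genes was 305 CPM in TRAMP, against 556 in Phf8-KO1 and 574 in Phf8-KO2. Fasn, the synthase that makes palmitate, measured 67.6 CPM in TRAMP, against 182 in Phf8-KO1 and 185 in Phf8-KO2. The gene lies on chromosome 11 from 120805958 to 120825166. The pools were 1.02-fold apart and their mean was 2.72-fold the TRAMP level (log2 fold change 1.44, SE 0.19, edgeR quasi-likelihood adjusted p = 0.10, DESeq2 adjusted p = 8.4e-06). Me1, the malic enzyme that supplies NADPH, measured 33.2 CPM in TRAMP, against 68.0 in Phf8-KO1 and 89.3 in Phf8-KO2 (log2 fold change 1.24, SE 0.26, edgeR quasi-likelihood adjusted p = 0.11, DESeq2 adjusted p = 0.0059). Acly, which splits citrate, measured 126 CPM in TRAMP, against 199 in Phf8-KO1 and 212 in Phf8-KO2, and its pools lay close to each other (log2 fold change 0.70, SE 0.20). Neither tool called it (edgeR quasi-likelihood adjusted p = 0.14, DESeq2 adjusted p = 0.059).
The carboxylase and the acetate enzyme lay nearest to TRAMP. Acaca, which makes malonyl-CoA, measured 31.5 CPM in TRAMP and averaged 44.0 ± 3.28 CPM over the Phf8-KO pools, with 52.6% of its 50-base words also found in another annotated gene. For Me1 this share was 26.5%, and for Fasn, Acly and Acss2 it was 0%. Acss2, which activates acetate, measured 46.4 CPM in TRAMP, against 60.1 in Phf8-KO1 and 45.5 in Phf8-KO2.
Fat cells make these enzymes too, so their markers are given here. Fabp4, a fatty acid carrier of fat cells, measured 268 CPM in TRAMP, against 13.5 in Phf8-KO1 and 29.8 in Phf8-KO2, and Cfd, the fat cell protease adipsin, stood at 295, 4.09 and 0.603 CPM. Of 9 adipocyte genes 8 lay below TRAMP in both pools, and none was at 0 in TRAMP or in both pools. The part of fat cells in the values of the fatty acid genes was not tested.

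Among the genes that lengthen, desaturate and activate fatty acids, values ran from well above TRAMP to below it. Over these 7 genes the median log2 fold change was 0.28, with 4 above TRAMP in both pools and 3 below. Fads1, the desaturase that makes arachidonate, measured 16.2 CPM in TRAMP, against 62.2 in Phf8-KO1 and 47.7 in Phf8-KO2, the largest fold of all 34 genes at 3.39 (log2 fold change 1.76, SE 0.27, edgeR quasi-likelihood adjusted p = 0.10, DESeq2 adjusted p = 5.5e-05). Its neighbor Fads2 lies beside it on chromosome 19 and acts earlier on the same route. It measured 14.3 CPM in TRAMP, against 44.5 in Phf8-KO1 and 17.3 in Phf8-KO2, and was the one member whose Phf8-KO pools were more than 2-fold apart (2.94% of members, background 18.3%). Elovl5, which elongates the products of Fads2, measured 68.2 CPM in TRAMP, against 133 in Phf8-KO1 and 108 in Phf8-KO2 (log2 fold change 0.82, SE 0.23, edgeR quasi-likelihood adjusted p = 0.14, DESeq2 adjusted p = 0.048).
The stearoyl-CoA desaturases make oleate and palmitoleate and were the 2 most abundant members per length in every library. Scd2 stood at 180.2 CPM per kilobase of exon in TRAMP and Scd1 at 92.5, followed by Ebp at 39.0, while Elovl6 was lowest at 0.533. In CPM, Scd2 was at 984 in TRAMP, 1361 in Phf8-KO1 and 1036 in Phf8-KO2, and Scd1 at 453, 401 and 415. Scd1 is a well-known target of SREBPs and its log2 fold change was -0.15 (SE 0.23), with both pools under TRAMP. Scd1 shares 4.66% of its 50-base words with other genes, mainly its relatives Scd2, Scd3 and Scd4, and Scd3 measured 1.97 CPM in TRAMP and averaged 4.19 ± 1.41 CPM over the Phf8-KO pools.
Within a library the proportions of these genes to each other were not alike between the groups. Counts of Fasn for each count of Scd1 were 0.149 in TRAMP, 0.455 in Phf8-KO1 and 0.446 in Phf8-KO2. For Fads1 the ratio to Scd1 was 0.0358 in TRAMP, 0.155 in Phf8-KO1 and 0.115 in Phf8-KO2. These gene pairs were chosen after their values were seen and are a description. Elovl6, which elongates palmitate, measured 3.42 CPM in TRAMP, against 2.21 in Phf8-KO1 and 3.35 in Phf8-KO2, and Acsl3, an acyl-CoA synthetase of lipid droplets, stood at 63.8, 55.5 and 38.0 CPM.

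**Figure D3:**
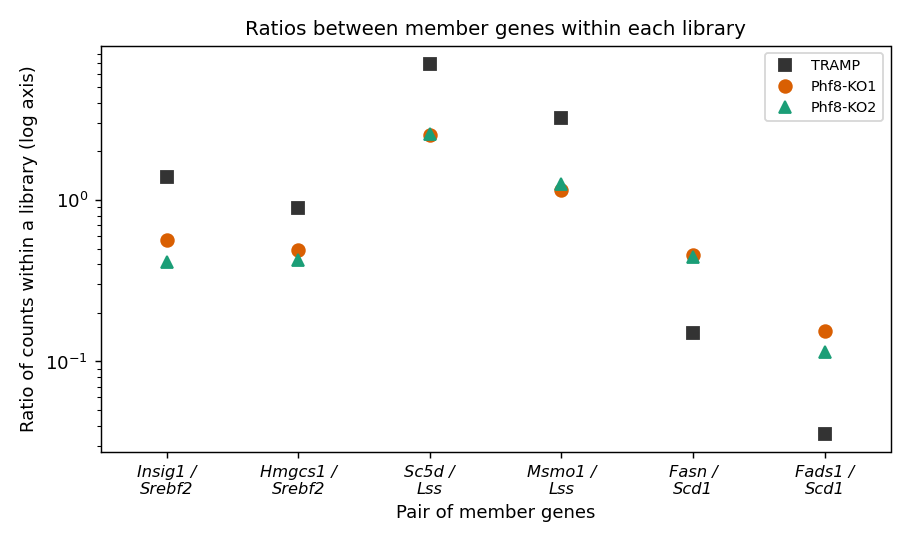
Ratio of the counts of one member gene to those of another within each library, on a log axis, where TRAMP is a square, Phf8-KO1 a circle and Phf8-KO2 a triangle. The ratios of Insig1 and Hmgcs1 to Srebf2 and of Sc5d and Msmo1 to Lss lie below TRAMP in both knockout pools. Those of Fasn and Fads1 to Scd1 lie above TRAMP in both. Srebf1 to Srebf2, not drawn, was 1.95 in TRAMP and 2.06 and 1.53 in the pools. The pairs were picked with earlier results known, and the ratios restate the levels of their genes.

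Other genes of lipid handling, listed from textbook knowledge with earlier results of these data known, are given beside the members. The edgeR quasi-likelihood fit called 0 genes of the 4 lists given here. The counts by unadjusted p below stand against 12.2% of all genes lower and 14.9% higher. Those by DESeq2 stand against 4.59% of genes lower and 9.42% higher. Of 15 genes that process or degrade SREBPs or bind DNA with them, 2 were lower at an unadjusted p under 0.05 and 0 higher, with 0 called by DESeq2. Rnf139, a ubiquitin ligase that acts in the sterol-sensing complex, measured 66.4 CPM in TRAMP, against 39.1 in Phf8-KO1 and 40.5 in Phf8-KO2, and Fbxw7, part of the ligase that degrades nuclear SREBPs, stood at 50.1 and 34.3 ± 1.43 CPM. Nfya, a subunit of the factor that binds CCAAT, measured 35.5 CPM in TRAMP, against 54.3 in Phf8-KO1 and 84.1 in Phf8-KO2.
Of 14 genes of cholesterol export and esterification, 9 lay below TRAMP in both pools and 3 above, where 42.8% and 40.8% of all genes did. Unadjusted p was under 0.05 for 2 lower ones and 0 higher. Soat1, which esterifies cholesterol for storage, measured 42.6 CPM in TRAMP, against 28.4 in Phf8-KO1 and 19.5 in Phf8-KO2, and Cyp27a1, an oxysterol-forming oxidase, stood at 69.5 CPM and 42.8 ± 4.97 CPM. Abcg1, an exporter switched on by the oxysterol receptors LXR, went the other way at 9.31, 16.3 and 42.3 CPM. The 10 leukocyte and macrophage markers summed to 765 CPM in TRAMP, against 347 in Phf8-KO1 and 142 in Phf8-KO2, and their part in these values was not tested.
Of 20 tested genes of fatty acid and glyceride synthesis outside the set, unadjusted p was under 0.05 for 4 higher and 2 lower ones, while DESeq2 called 1 in each direction. Mid1ip1, whose product helps acetyl-CoA carboxylase to polymerize, measured 16.5 CPM in TRAMP, against 58.4 in Phf8-KO1 and 51.7 in Phf8-KO2 (log2 fold change 1.74, SE 0.21). Its relative Thrsp, a lipogenic gene of fat, liver and mammary gland, measured 25.8 CPM in TRAMP, against 1.05 in Phf8-KO1 and 0.392 in Phf8-KO2, and so stood on the side of the fat cell markers. Dgat2, which makes triglyceride, was at 12.0, 14.8 and 31.8 CPM.
Of 11 tested genes of fatty acid oxidation, unadjusted p was under 0.05 for 4 lower ones and 1 higher one, while DESeq2 called 2 lower. Ehhadh, the bifunctional enzyme of peroxisomes, measured 54.6 CPM in TRAMP, against 15.2 in Phf8-KO1 and 17.1 in Phf8-KO2 (log2 fold change -1.76, SE 0.20). Hadhb, a subunit of the mitochondrial trifunctional protein, measured 83.6 CPM in TRAMP and averaged 36.9 ± 2.74 CPM over the Phf8-KO pools, and Acadm, the medium-chain dehydrogenase, stood at 133 and 67.0 ± 8.91 CPM. Skeletal muscle and fat use this pathway heavily, their markers were higher in TRAMP as given above, and their part in these values was not tested.

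Markers of other cells and of division differed between the libraries too. Proliferation genes, 10 in all, lay above TRAMP in both pools and summed to 964 CPM in TRAMP, against 1539 in Phf8-KO1 and 1425 in Phf8-KO2. Mki67, a marker of cycling cells, measured 220.0 CPM in TRAMP and averaged 376 ± 13.6 CPM over the Phf8-KO pools. Neuroendocrine genes summed to 163 CPM in TRAMP against 43.9 and 25.7 in the pools, while 9 tested seminal vesicle genes, all above TRAMP in both pools, summed to 118 CPM against 1457 and 2159 CPM. Of 8 fibroblast genes, 5 lay above TRAMP in both pools and 1 below, and DESeq2 called 3 higher, where it called 9.42% of genes. Their sum of 1755 CPM in TRAMP against 1796 and 794 in the pools was carried by Dcn, a matrix proteoglycan gene at 1473, 639 and 214 CPM, while the collagen gene Col1a1 stood at 8.20, 163 and 97.1 CPM. The part of these cells in the values of Srebf1, Srebf2, Fasn or Fads1 was not tested.

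**Figure D4:**
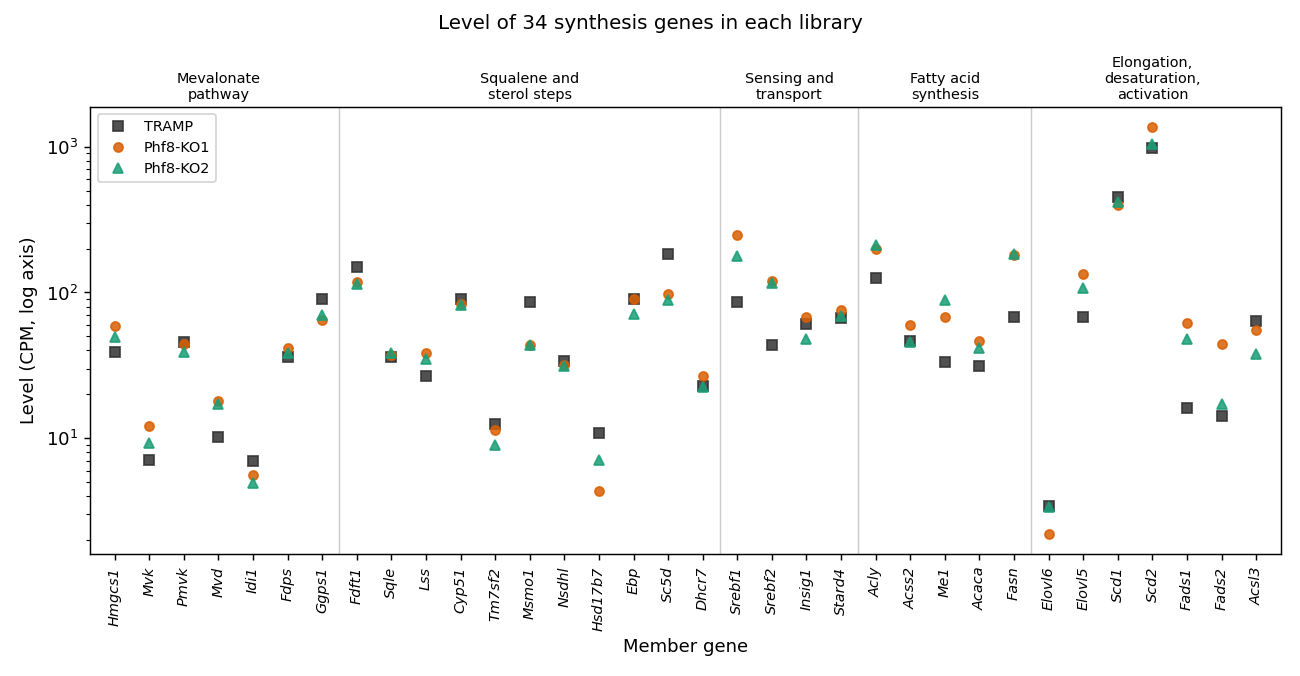
Level in CPM on a log axis of the 34 genes in TRAMP (squares), Phf8-KO1 (circles) and Phf8-KO2 (triangles), each library a pool of 3 mice. Levels span from 2.21 CPM for Elovl6 in Phf8-KO1 to 1361 CPM for Scd2 in the same library, and the library markers of Fasn, Srebf2, Sc5d and Msmo1 separate while those of Sqle, Cyp51 and Nsdhl nearly coincide.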

How the data were processed

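Tumor RNA was sequenced in 3 libraries. As the series design text and labels state, the authors filtered the reads, aligned to GRCm38 by HISAT2 and tallied genes by HTSeq. They deposited unnormalized counts, 46095 symbols long. Tool versions, annotation and strand setting are not given in the sources used here, so a gene cannot be separated from one that overlaps it on the other strand.

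Counts were tested in R 4.3.3 with edgeR 4.0.16 (quasi-likelihood at its default, TMM, filterByExpr, Benjamini-Hochberg over 18216 genes, 1 residual degree of freedom), with calls requiring adjusted p below 0.05 plus a fold above 2 or below 0.5. Of the 25757 genes DESeq2 1.42.0 could fit, 9488 got no adjusted p. An SE is the absolute log2 fold change divided by the square root of the F statistic. Log2 ratios per pool used a prior count of 1. Totals set a floor of 3 counts at 0.0905 to 0.113 CPM. Exon lengths, overlaps and shared 50-base words are from the GENCODE annotation of GRCm38. Scripts were tested on simulated counts. Alternatives were 3 scalings, 2 filters, DESeq2, limma-voom 3.58.1, a second quasi-likelihood version and dropping either Phf8-KO pool. The members, lists and tests were chosen with earlier results of these data known. Named genes are all 34 members, Phf8, up to 3 genes a pathway list with the largest fold, both pools on 1 side of TRAMP and 10 CPM or more in the group where they are higher, and the 2 most abundant genes of a cell type list, of which only some are printed. Scd3, named beside Scd1, and Col1a1 were added after their values were seen. A further list of pathway genes is not reported here.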

Additional observations from a re-analysis of the deposited data

How the results depend on the processing

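Of 340 values of the 34 members under 10 alternatives, 323 kept the direction and, where tested, the side of the threshold, 10 were newly called (Srebf1, Srebf2, Me1, Fasn and Fads1 by DESeq2 and by edgeR without a filter on low counts) and 7 turned sign. Members called higher were 5 by DESeq2 and 5 without the filter against 0 in the other tests. Over all genes, calls lower and higher were 747 and 1533 by DESeq2, 856 and 1430 without the filter, and 19 and 1 by library size alone, while limma-voom and a mean CPM of at least 1 gave 0 lower. Upper quartile scaling moved the median of all genes by -0.15. It gave log2 fold changes of -0.10 for Sqle, -0.04 for Dhcr7 and -0.04 for Stard4, and medians of -0.04 for all members, 0.00 for the mevalonate pathway and 0.55 for fatty acid synthesis, where library size alone gave 0.78. Insig1 was 0.01 by library size alone. More than 2-fold lower were 3 members by upper quartile scaling, 2 at a mean CPM of at least 1 and 0 in the reported test. The cause of these differences was not tested.

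Leaving out each Phf8-KO pool leaves 1 library against 1 and no test. Members more than 2-fold lower were then 1 in either case, and the median for fatty acid synthesis ranged from 0.66 to 0.78. Ebp ranged from -0.30 to 0.01, Dhcr7 from 0.00 to 0.23 and Insig1 from -0.31 to 0.17. No paired analysis was possible because the single TRAMP library shares no pairing with the Phf8-KO pools. With 1 TRAMP library the spread among TRAMP tumors is unknown.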
